A study of Mus musculus with 10 samples.

Results

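The genes described here encode 10 transcription factors that steer blood progenitors toward granulocytes and monocytes: Myb, Myc, Runx1, Cebpa and Gfi1 of the early stages, Cebpe of the intermediate stage, Cebpb, Cebpd and Spi1 of the late stages, and Irf8 of the monocyte branch. They were taken by name, each had 1 probe set that names only that gene, and they are 10 of the 19938 genes measured. RNA of bone marrow neutrophils of female C57BL/6 mice aged 10 weeks, recovered from the layer between 81% and 62% Percoll, was hybridised to 10 arrays of the Affymetrix Mouse Gene ST type. The 4 groups were Lcn2 knockout (KO) cells after fMLP (2 arrays), wild type (WT) cells after fMLP (2 arrays), unstimulated KO cells (3 arrays) and unstimulated WT cells (3 arrays). Lcn2 encodes lipocalin 2, a granule protein that binds bacterial iron carriers, and fMLP is a formylated peptide that attracts and activates neutrophils, given for 20 minutes at a concentration of 10 micromolar and a temperature of 37 degrees. It is not stated how the knockout was made, whether replicates were separate animals or whether unstimulated cells were also kept at 37 degrees, so p-values measure only the spread between these arrays, which may be technical.

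In granulopoiesis, RUNX1, MYB and C/EBP alpha act in progenitors and promyelocytes and switch on primary granule genes. GFI1 represses monocyte genes, C/EBP epsilon drives the secondary granule genes of myelocytes, and PU.1 (the product of Spi1) acts in all myeloid cells. MYC keeps precursors growing, C/EBP beta takes over in emergency granulopoiesis and inflammation, C/EBP delta accumulates late, and IRF8 favours monocytes and dendritic cells.

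Promoter windows were looked up for the factors, and those of Cebpa and Cebpb are shown because these genes had the smallest p-values of the 10 after fMLP, with differences of opposite sign. Sequences are from RefSeq, mouse build GRCm38.p6, forward strand, and run from 250 bases before to 50 bases after the annotated start. Capitals mark TATAAA, and in Cebpb also TGACG or its reverse complement, a part of the cyclic AMP response element. Both motifs were added after the windows had been seen.
Cebpa, chr7:35119043-35119342: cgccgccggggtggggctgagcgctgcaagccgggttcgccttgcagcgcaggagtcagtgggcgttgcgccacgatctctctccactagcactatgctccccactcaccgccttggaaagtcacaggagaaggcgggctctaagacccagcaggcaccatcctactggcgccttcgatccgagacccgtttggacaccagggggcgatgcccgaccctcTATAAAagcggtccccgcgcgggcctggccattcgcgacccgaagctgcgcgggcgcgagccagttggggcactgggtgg
Cebpb, chr2:167688665-167688964: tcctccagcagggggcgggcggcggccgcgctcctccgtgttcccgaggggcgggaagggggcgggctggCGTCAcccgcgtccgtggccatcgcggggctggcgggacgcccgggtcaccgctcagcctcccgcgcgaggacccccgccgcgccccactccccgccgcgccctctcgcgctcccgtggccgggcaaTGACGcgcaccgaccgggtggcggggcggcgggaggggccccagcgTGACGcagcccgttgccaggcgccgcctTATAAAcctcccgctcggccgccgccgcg
The Cebpa window held TATAAA at -30 to -25 from the start, and the Cebpb window held it at 22 to 27. TGACG lay at -53 to -49 and -7 to -3 in the Cebpb window, and its reverse complement at -180 to -176. Of 32851 mouse promoter windows of this length, 13.6% held TATAAA and 20.8% held TGACG on either strand. Neither window held the full cyclic AMP response element TGACGTCA (1.79% of windows), the AP-1 site TGACTCA or TGAGTCA (5.2%), the C/EBP palindrome TTGCGCAA (0.183%), the E-box CACGTG of MYC and MAX (7.15%), the PU.1 site GAGGAAGT (3.2%), the RUNX site TGTGGT (16.8%) or a serum response element (1.63%). Windows were also at hand for Myb, Runx1, Gfi1 and Irf8, and a Runx1 window held CACGTG and, on the other strand, TGTGGT, while an Irf8 window held TATAAA at -31 to -26.

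Values are RMA signals on the log2 scale, on which a difference of 1 is a 2-fold difference. The arrays fell into 2 sets by the interquartile range of all their values, which was 1.64 to 1.68 on unstimulated replicates 1 and 2 of both genotypes (set 1) and 2.47 to 2.59 on unstimulated replicate 3 of both genotypes and the 4 fMLP arrays (set 2). The labels name no batch, and the set was a term of the model. Lcn2 was lower on every KO array than on every WT array, at 8.09 to 9.60 on the 5 KO arrays against 13.88 to 14.16 on the 5 WT arrays. The 11 neutrophil markers were above the median of all values on every array. KO fMLP replicate 2 stood apart, with the neuron gene Snap25 at 13.43 against 7.36 to 8.78 on the other arrays and all 10 neuron markers above the median. All arrays are labelled female, but the Y-linked Eif2s3y was at 9.59 and 9.83 on unstimulated replicate 3 of KO and WT, against 5.36 to 7.22 on the other 8 arrays. Xist, which is transcribed from the inactive X chromosome of female cells, was at 9.83 to 11.12 on the 4 fMLP arrays, against 6.88 to 7.82 on the 6 unstimulated arrays. The Y-linked Kdm5d was at 6.54 to 7.11 on the fMLP arrays, against 7.40 to 7.96 on the unstimulated arrays. These sex-linked genes differed along the fMLP comparison, and what goes with them cannot be told apart from fMLP. The differences of the 10 factors are given on 10 arrays and on 9, without KO fMLP replicate 2. Set 1 holds unstimulated arrays only. With the set term, the averaged fMLP difference is therefore fMLP arrays minus the 2 unstimulated arrays of set 2, 1 of each genotype. These are the 2 arrays with high Eif2s3y. The arrays of set 1 enter the averaged comparison only through the estimate of the spread. On 9 arrays the KO fMLP group is 1 array, whose spread is assumed to be that of the other groups.

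All 10 factors were measured above the filter, Myc above the median of all values (8.18) on 8 arrays and the others on 10. None of the 10 passed the test in any comparison, on 10 arrays or on 9. For fMLP against unstimulated, averaged over genotype, limma called 0.341% of the 14070 tested genes on 10 arrays and 10.1% on 9 arrays. Within WT cells it called 0.0782% and 5.15%, and within KO cells 0.0853% and 2.15%. For KO against WT it called 0.00711% on 10 and on 9 arrays, both unstimulated and after fMLP, which is 1 gene, Lcn2. The interaction, the fMLP difference in KO cells minus that in WT cells, called 0% on 10 arrays and 0% on 9, with 258 and 125 genes at an unadjusted p below 0.05.

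**Figure D1:**
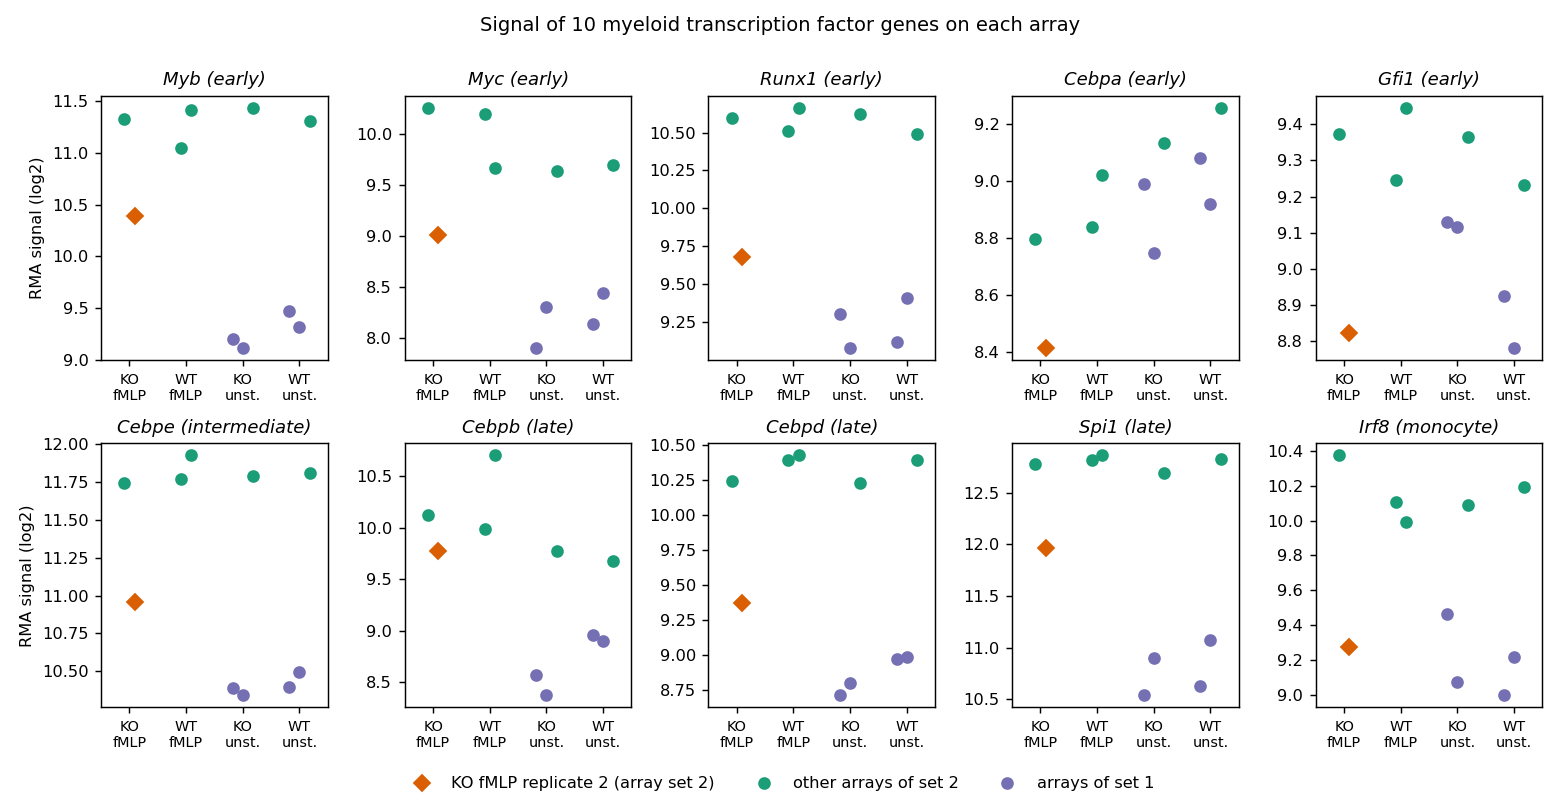
RMA signal (log2, vertical axis) of the 10 factors, 1 panel a gene with its own axis range, on each array of KO fMLP, WT fMLP, KO unstimulated and WT unstimulated cells; each point is 1 array. All 10 genes were lower on the 4 unstimulated arrays of set 1 (purple) than on the 2 of set 2 (green), and KO fMLP replicate 2 (orange diamond) was the lowest fMLP array for all 10.

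Among the early factors, Cebpa, which commits progenitors to the granulocyte and monocyte line, had values of 8.80 and 8.41 on the KO fMLP arrays and 8.84 and 9.02 on the WT fMLP arrays. Unstimulated, it was at 8.99, 8.75 and 9.13 in KO cells and 9.08, 8.92 and 9.26 in WT cells. All 4 fMLP arrays lay below both unstimulated arrays of set 2 (9.13 in KO, 9.26 in WT), while they overlapped the arrays of set 1. Of all tested genes, 20.2% were lower in this way on all 4 fMLP arrays, and 28.7% on the 3 without KO fMLP replicate 2. The fMLP difference was -0.43 ± 0.14 (SE; 95% interval -0.74 to -0.11; limma adjusted p = 0.206) on 10 arrays and -0.33 ± 0.11 (-0.58 to -0.09; adjusted p = 0.0901) on 9, and it did not pass the threshold. On the 9 arrays the Cebpa difference was -0.34 in KO cells and -0.33 in WT cells, and the interaction was -0.01 (95% interval -0.39 to 0.38).

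Myc, the driver of growth and ribosome production in precursors, was at 10.26 and 9.01 on the KO fMLP arrays and 10.20 and 9.67 on the WT fMLP arrays. Its unstimulated values were 7.90, 8.30 and 9.64 in KO cells and 8.14, 8.43 and 9.70 in WT cells. KO fMLP replicate 1 and WT fMLP replicate 1 were above both unstimulated arrays of set 2, WT fMLP replicate 2 lay between them and KO fMLP replicate 2 below them. The fMLP difference of Myc was 0.12 ± 0.32 (-0.63 to 0.86; limma adjusted p = 0.897) on 10 arrays and 0.43 ± 0.17 (0.04 to 0.81; adjusted p = 0.161) on 9, so the 1 array moved it by over 1.5 times. Within KO cells it was 0.04 on 10 arrays and 0.66 (adjusted p = 0.201) on 9, against 0.19 in WT cells on both.

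Myb, a factor of proliferating progenitors, had 11.32 and 10.39 on the KO fMLP arrays and 11.05 and 11.41 on the WT fMLP arrays. Unstimulated values of Myb were 9.20, 9.11 and 11.43 in KO cells and 9.47, 9.31 and 11.31 in WT cells. The gap in Myb lay between the array sets, and the fMLP arrays overlapped the unstimulated arrays of their own set.

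Runx1, required for definitive blood stem cells and for granule gene activation, was at 10.60 and 9.68 on the KO fMLP arrays and 10.51 and 10.66 on the WT fMLP arrays. It was at 9.31, 9.08 and 10.62 in unstimulated KO cells and 9.12, 9.41 and 10.49 in unstimulated WT cells. Gfi1, the repressor that favours granulocytes over monocytes, had 9.37 and 8.82 on the KO fMLP arrays, 9.25 and 9.45 on the WT fMLP arrays, 9.13, 9.11 and 9.36 in unstimulated KO cells and 8.92, 8.78 and 9.23 in unstimulated WT cells. In both genes the fMLP arrays overlapped the unstimulated arrays of set 2. The fMLP differences on 10 arrays were -0.33 for Myb, -0.20 for Runx1 and -0.08 for Gfi1 (limma adjusted p 0.584 to 0.853), and on 9 arrays -0.10, 0.03 and 0.06 in the same order (0.722 to 0.908).

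Cebpe, the factor of secondary granule genes, was at 11.74 and 10.96 on the KO fMLP arrays and 11.77 and 11.93 on the WT fMLP arrays. Its unstimulated values were 10.39, 10.34 and 11.79 in KO cells and 10.40, 10.50 and 11.81 in WT cells. The fMLP difference of Cebpe was -0.20 ± 0.19 (-0.64 to 0.24; limma adjusted p = 0.676) on 10 arrays and -0.01 ± 0.09 (-0.22 to 0.20; adjusted p = 0.976) on 9, the narrowest interval but 1 of the 10 factors.

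Of the late factors, Cebpb, an inflammation-induced C/EBP protein, was at 10.13 and 9.78 on the KO fMLP arrays and 9.98 and 10.70 on the WT fMLP arrays. Unstimulated cells had 8.57, 8.37 and 9.78 in KO and 8.96, 8.90 and 9.68 in WT. WT fMLP replicate 2 was the highest array, and the 3 fMLP arrays other than KO fMLP replicate 2 were above both unstimulated arrays of set 2, as were 26.8% of all tested genes. On all 4 fMLP arrays 11.9% of genes were higher without overlap and 0 of the 10 factors were. The fMLP difference was 0.42 ± 0.22 (-0.08 to 0.93; limma adjusted p = 0.428) on 10 arrays and 0.51 ± 0.20 (0.06 to 0.95; adjusted p = 0.146) on 9.

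Cebpd, another C/EBP protein of maturing granulocytes, had 10.24 and 9.38 on the KO fMLP arrays, 10.39 and 10.43 on the WT fMLP arrays, 8.71, 8.80 and 10.23 in unstimulated KO cells and 8.97, 8.98 and 10.39 in unstimulated WT cells. Spi1 was at 12.78 and 11.96 on the KO fMLP arrays, 12.82 and 12.86 on the WT fMLP arrays, 10.54, 10.90 and 12.69 in unstimulated KO cells and 10.63, 11.07 and 12.83 in unstimulated WT cells. Apart from KO fMLP replicate 2, the arrays of set 2 stayed within 10.23 to 10.43 for Cebpd and within 12.69 to 12.86 for Spi1. Their fMLP differences on 10 arrays were -0.20 for Cebpd and -0.15 for Spi1 (limma adjusted p 0.693 and 0.799), and on 9 arrays 0.01 and 0.05 (0.951 and 0.877).

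Irf8 had 10.37 and 9.27 on the KO fMLP arrays and 10.10 and 9.99 on the WT fMLP arrays, with 9.46, 9.08 and 10.09 in unstimulated KO cells and 8.9975, 9.22 and 10.19 in unstimulated WT cells. KO fMLP replicate 1 was the highest array and both WT fMLP arrays lay below the WT unstimulated array of set 2. The fMLP difference of Irf8 was -0.21 (limma adjusted p = 0.768) on 10 arrays and 0.07 (0.819) on 9. The summed signal of 8 monocyte markers was 12.42 to 12.76 on the 3 other fMLP arrays and 11.76 on KO fMLP replicate 2, against 13.37 to 13.81 on the unstimulated arrays of set 2 and 11.56 to 11.83 on those of set 1. In bulk RNA, fewer cells of a type and less RNA per cell cannot be told apart.

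**Figure D2:**
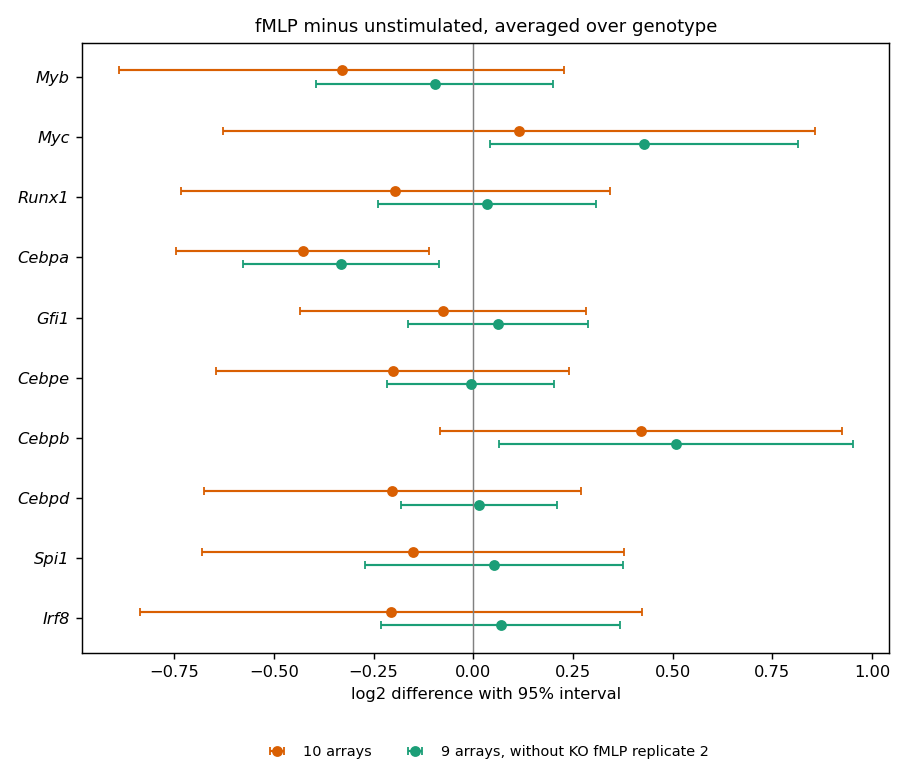
Log2 difference, fMLP minus unstimulated, averaged over genotype (horizontal axis), for each factor with its 95% interval, on 10 arrays (orange, upper) and on 9 (green, lower). On 10 arrays only the interval of Cebpa leaves out 0 (-0.74 to -0.11); on 9 arrays those of Cebpa (-0.58 to -0.09), Cebpb (0.06 to 0.95) and Myc (0.04 to 0.81) do, with no adjusted p below 0.05.

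The early factors had a median fMLP difference of -0.20 and the late factors of -0.15 on 10 arrays, where the median over all tested genes was -0.02. On 9 arrays the medians were 0.03 for the early factors and 0.05 for the late factors, beside -0.01 over all genes. With 3 late factors, both late medians were the value of Spi1, whose product acts in all myeloid cells. Of the 5 early factors 1 was above 0 on 10 arrays and 3 on 9, and of the 3 late factors 1 and 3. The ranges of the early and late factors overlapped, and Cebpa (-0.33) and Myc (0.43) lay at opposite ends of the early factors on 9 arrays.

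In unstimulated cells the KO minus WT differences of the 10 factors ran from -0.27 (Cebpb) to 0.22 (Gfi1), with a limma adjusted p of 1 for each on 10 arrays. The medians were -0.12 for the early and -0.20 for the late factors, beside 0.01 over all tested genes. Gfi1 was higher in KO cells in both array sets, by 0.27 in set 1 and 0.13 in set 2, with a difference of 0.22 ± 0.15 (-0.11 to 0.56) on 10 arrays and 0.22 ± 0.09 (0.03 to 0.42; unadjusted p = 0.0299, adjusted p = 0.994, limma) on 9. In set 1 the KO arrays of Gfi1 lay above the WT arrays without overlap, as did 15.4% of tested genes, and 9.13% did so and were also higher in set 2. Cebpd had -0.22 in set 1 and -0.16 in set 2, with a difference of -0.20 ± 0.19 (-0.65 to 0.24; unadjusted p = 0.328, limma) on 10 arrays and -0.20 ± 0.08 (-0.37 to -0.03; unadjusted p = 0.0250, adjusted p = 0.994, limma) on 9. In set 1 Myb, Cebpe, Cebpb and Cebpd were lower in KO without overlap, as were 13.5% of genes, and Cebpe and Cebpd were also lower in set 2, as were 6.44% of genes. Cebpb had the largest KO difference of the 10 in set 1, -0.46, and 0.10 in set 2, so its sign turned between the sets.

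After fMLP, all 10 KO minus WT differences were below 0 on 10 arrays, from -0.60 (Cebpd; -1.15 to -0.06; limma adjusted p = 0.416) to -0.22 (Irf8), beside a median of -0.05 over all genes. Cebpa, Cebpe, Cebpd and Spi1 were lower on both KO fMLP arrays than on both WT fMLP arrays, as were 26% of tested genes. Without KO fMLP replicate 2, 5 factors were above 0 and 5 below, from -0.22 (Cebpb) to 0.33 (Irf8 and Myc), with an adjusted p of 1 for each from a KO fMLP group of 1 array. Without KO fMLP replicate 1, replicate 2 alone stands for the KO fMLP group and its spread is taken from the other groups. All 10 differences were then below 0, from -1.04 (Cebpd) to -0.52 (Cebpa), beside a median of -0.10 over all tested genes. Myb, Myc, Runx1, Gfi1 and Irf8 changed sign without KO fMLP replicate 2, while Cebpa, Cebpe, Cebpb, Cebpd and Spi1 stayed below 0.

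**Figure D3:**
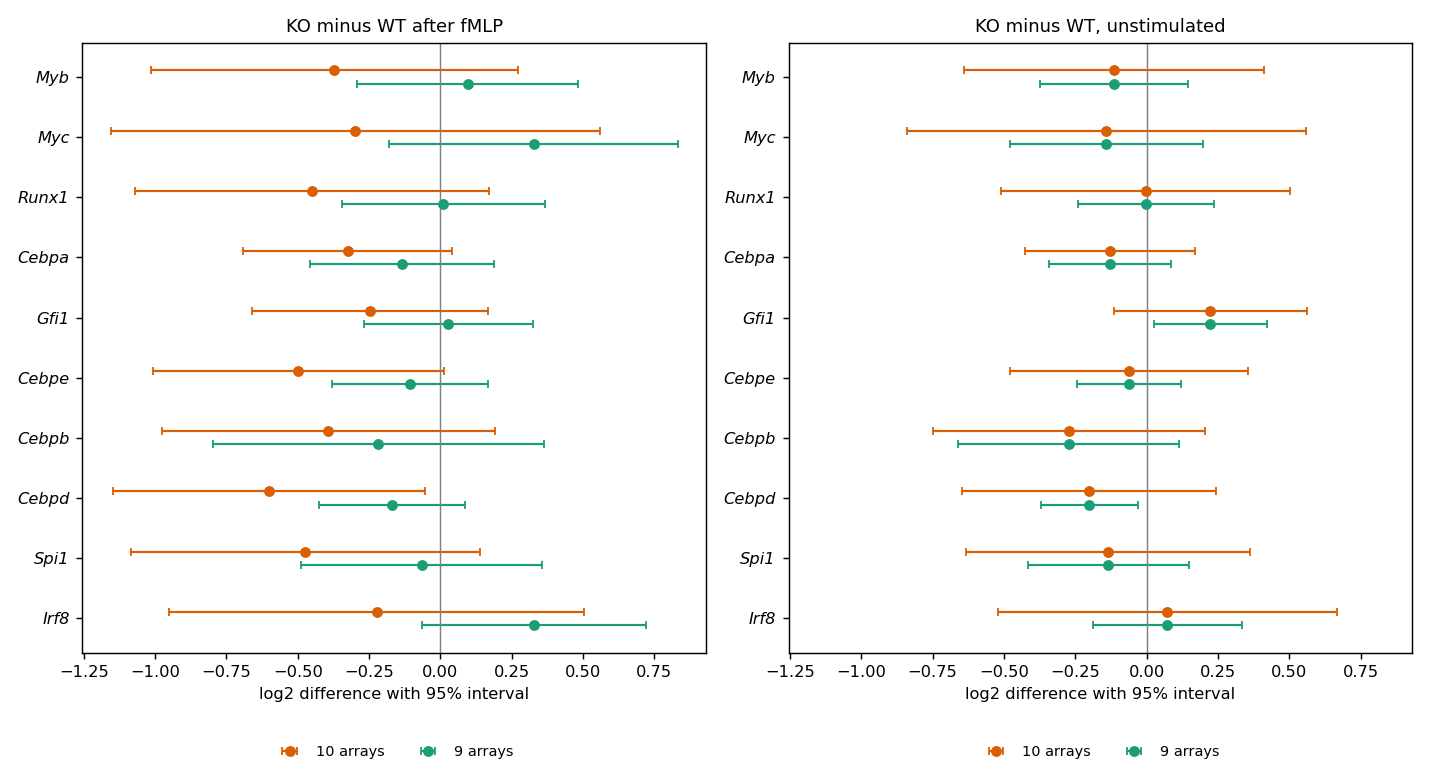
Log2 difference, KO minus WT (horizontal axes), of each factor with its 95% interval, after fMLP (left) and unstimulated (right), on 10 arrays (orange, upper) and on 9 (green, lower). After fMLP the 10 differences lie below 0 on 10 arrays (-0.60 to -0.22) and on both sides of 0 on 9 arrays (-0.22 to 0.33); unstimulated they lie between -0.27 and 0.22 on both.

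For each factor except Cebpa the difference between the array sets was larger than the fMLP difference on 10 arrays. Among unstimulated arrays, set 2 exceeded set 1 by 2.10 for Myb, 1.97 for Spi1, 1.48 for Myc, 1.44 for Cebpd, 1.40 for Cebpe, 1.33 for Runx1, 1.03 for Cebpb, 0.95 for Irf8, 0.31 for Gfi1 and 0.26 for Cebpa, beside a median of 0.09 over all genes. All 10 factors were higher on both set 2 arrays than on the 4 set 1 arrays, as were 47.6% of tested genes. Set 2 also had the wider interquartile range, whose part was not tested. By percentile among all probe sets of an array, these sets overlapped for Cebpa and Gfi1, and set 2 was higher for the other factors. Cebpa lay at 63.9 to 74.4 in set 1 and 72.0 to 73.8 in set 2, and Myc at 35.7 to 53.5 and 79.4 to 80.0. KO fMLP replicate 2 minus the average of the remaining fMLP arrays gave -1.03 (Myc) to -0.47 (Cebpa), beside -0.11 for the median gene, and all 10 factors were lowest on it, as were 52.7% of genes. Neuron markers summed to 14.90 on it, against 10.86 to 10.92 on the other fMLP arrays. Their part in these differences was not tested.

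**Figure D4:**
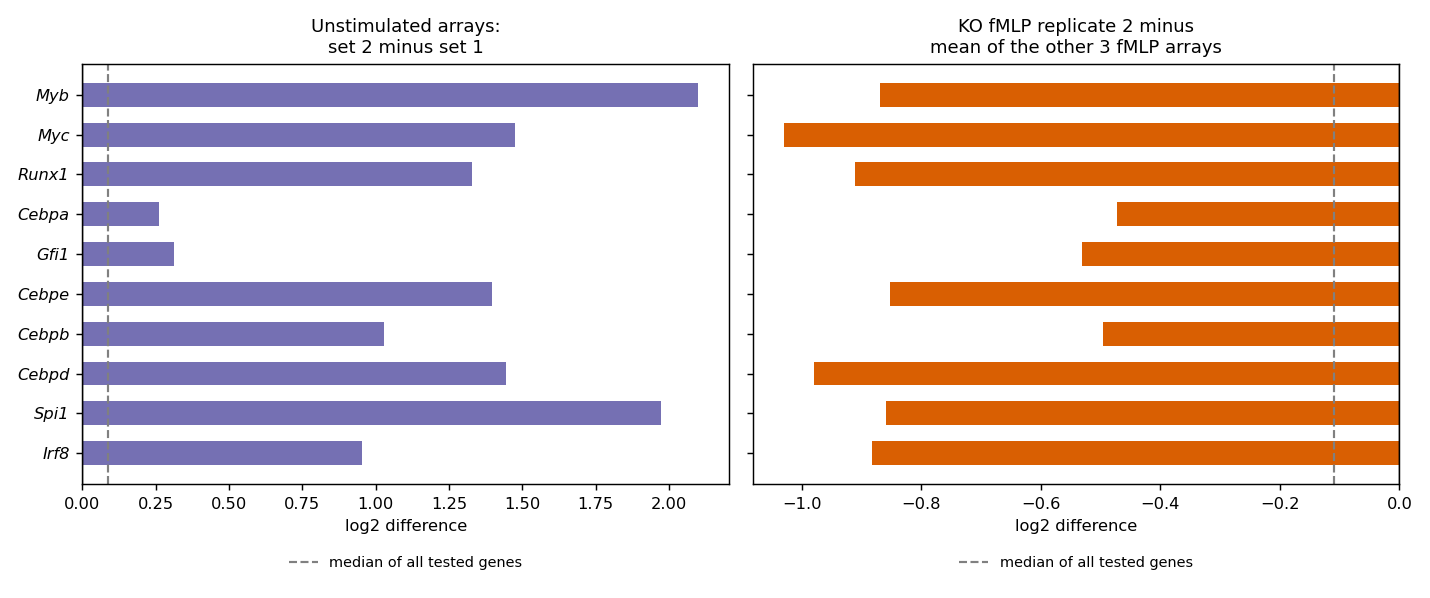
Log2 difference of each factor between unstimulated arrays of set 2 and set 1 (left) and between KO fMLP replicate 2 and the mean of the other 3 fMLP arrays (right); bars start at 0 and the dashed line is the median of all tested genes. The bars run from 0.26 to 2.10 on the left and from -1.03 to -0.47 on the right.

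Genes around the factors were read from lists drawn up with earlier results of these data known. On 10 arrays 2 of them were called after fMLP, Atf3 (2.32; limma adjusted p = 0.0205), a stress-induced partner of C/EBP proteins, and Egr2 (2.19; 0.0331), an immediate early factor of the macrophage branch. On 9 arrays, where 10.1% of all tested genes were called in either direction, 4 of 8 C/EBP family and partner genes rose and 0 fell: Atf3 by 2.46, Trib1 by 1.21, Ddit3 by 0.70 and Trib2 by 0.55. On 10 arrays Trib1, Ddit3 and Trib2 had 1.04, 0.56 and 0.60 and were not called (limma adjusted p 0.110 to 0.156). TRIB1 and TRIB2 mark C/EBP alpha for degradation, and DDIT3 is a C/EBP protein that pairs with others and blocks their binding. Of 15 RUNX, ETS and GFI1 partners 3 rose on 9 arrays, Ets2 (1.67), Irf4 (1.36) and Spib (0.87), which on 10 arrays had 1.49, 0.96 and 0.53 and were not called. Among 22 other lineage factors 5 rose on 9 arrays, Egr2 (2.28), Egr1 (1.69), Klf1 (0.91), Gata1 (0.70) and Pax5 (0.53). Of these, Egr1, Klf1, Gata1 and Pax5 had 1.78, 0.68, 0.46 and 0.25 on 10 arrays and were not called there. The summed B cell markers, which include Pax5, were 14.61 to 14.91 on the 3 fMLP arrays, against 13.83 to 14.26 on the unstimulated arrays of set 2, and their part was not tested. The summed erythroid markers, which include Klf1 and Gata1, overlapped, with 12.95 to 13.53 on the 3 fMLP arrays and 12.91 to 13.001 on the unstimulated arrays of set 2.

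Products of the early stage had fMLP differences below 0 on 9 arrays for 7 of 7 genes, beside a median of -0.01 over all tested genes. The largest were those of Ctsg (-1.24), Elane (-1.01), Mpo (-0.79), Prtn3 (-0.75) and Ms4a3 (-0.74). These are primary granule and promyelocyte genes, among them known targets of MYB, RUNX1 and C/EBP alpha. The list's median was -0.95 on 10 arrays, where 0 of 7 were called, and -0.75 on 9. On 9 arrays Ctsg, Elane, Mpo, Prtn3 and Ms4a3 were called lower, and the other genes of the list were not. Those calls rest on a KO fMLP group of 1 array. Of 10 middle stage products and 8 late stage products 0 were called on 10 and on 9 arrays, with 9-array medians of 0.03 and -0.03. Eosinophil markers summed to 11.31 to 11.69 on the 3 fMLP arrays and 10.82 on KO fMLP replicate 2. On the unstimulated arrays of set 2 they summed to 13.73 to 13.79. The 8 progenitor markers summed to 11.74 to 11.78 on the 3 fMLP arrays and 11.26 on KO fMLP replicate 2. Their sums on the unstimulated arrays of set 2 were 11.998 to 12.028. All 5 tested progenitor markers had fMLP differences below 0 on 9 arrays, with a median of -0.26. The part of either cell type in the early product differences was not tested.

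Of 17 MYC targets 2 were called on 9 arrays, both higher, Odc1 (0.72), the first enzyme of polyamine synthesis, and Nme1 (0.41). That share is near the 10.1% of all genes, and on 10 arrays Odc1 had 0.45 and Nme1 0.44, neither called. None of the 12 genes of the MYC network was called. Among MYB relatives and coactivators Mybl2 rose by 0.43 and Ep300, a coactivator that binds MYB, fell by 0.62 on 9 arrays, of 3 tested; on 10 arrays Mybl2 had 0.25 and Ep300 -0.83, neither called. The cytokine receptor list of 12 genes also held signalling genes such as Stat3 and Socs3. Only Csf2ra, the GM-CSF receptor alpha chain, was called in it, with 0.41 on 9 arrays and 0.17 (limma adjusted p = 0.769, not called) on 10. Of 20 proliferation genes 2 were called on 9 arrays, again near the 10.1% of all genes, Mcm3 (0.51) and Plk1 (-0.43), which had 0.30 and -0.62 on 10 arrays and were not called. In the genotype comparisons 0 genes of these lists were called. In unstimulated KO cells the differences from WT were below 0 for 6 of 7 early, 10 of 10 middle and 7 of 8 late stage products, with medians of -0.30, -0.21 and -0.11 beside 0.01 over all tested genes. They were below 0 for 10 of 11 neutrophil markers (median -0.13), most of which are middle or late stage products already counted here. They were also below 0 for 6 of 8 monocyte markers (-0.27), and above 0 for 11 of 11 B cell markers (0.12).

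**Figure D5:**
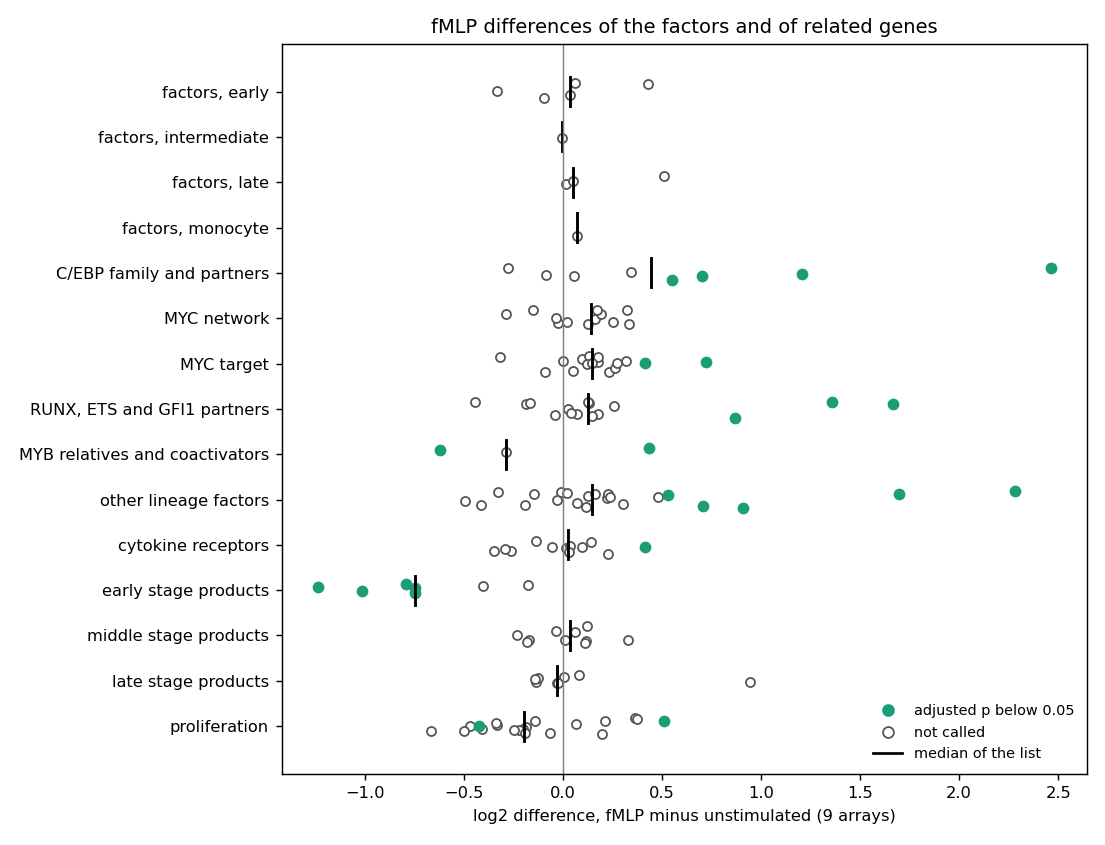
Log2 difference, fMLP minus unstimulated averaged over genotype on 9 arrays (horizontal axis), of the factors and of 11 lists of related genes (rows); each point is 1 gene, filled where the limma adjusted p is below 0.05, and the black bar is the list's median. None of the 10 factors is filled, and the early stage products have the lowest median, -0.75.

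By the Pearson correlation of values after subtraction of the array set mean, over 9 arrays that share the groups and the 2 sets, Cebpa was most like Slc22a15 (0.98), Cstb (0.97) and Taf7 (0.97). Cebpb was most like Dmwd (0.95), Ttll3 (0.95) and Tnf (0.95), the last a cytokine of activated myeloid cells. These are the highest of 14070 correlations and are given as a description.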

How the data were processed

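The authors deposited RMA values made in Affymetrix Expression Console, per the submitters' processing notes, and the deposited values are treated as log2 because of the span they cover; no label gives the base. RMA corrects background, aligns distributions between arrays and combines the probes of a set. The interquartile range differed between the 2 array sets, so the deposited values were not aligned across all 10 arrays. Probe sets that name 1 gene (21789 of 35556) were used, 1 a gene by highest mean, with names from GEO's platform table. Genes above the median of all values (8.18) on at least 2 arrays were tested (14070), which the 10 factors all were. limma 3.58.1 in R 4.3.3 fitted a mean per group and the array set on all 10 arrays (5 residual degrees of freedom). Tests were two-sided, with Benjamini-Hochberg adjustment over all tested genes and calls below 0.05. The small number of arrays limits the precision. Scripts were tested on simulated data.

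The factors and all lists were chosen with earlier results of these data known. The text names the 10 factors, up to 3 genes per related list by p together with any called gene, Lcn2, and the 3 genes most like each of the 2 factors with the smallest p.

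Same-numbered unstimulated KO and WT arrays deviated together, with correlations of 0.949, 0.929 and 0.988 over both array sets. Same-numbered arrays lie in the same set, so these values carry the set difference and cannot show pairing. Within set 1, with 2 arrays a group, there was a single correlation, 0.464, so it stays unknown whether the numbers pair the arrays. The replicate block left 1 unstimulated call. For fMLP arrays the correlation was 0.0598. Alternatives covered normalization, filters, the probe set rule, the variance model, array weights, the set term, a replicate block and left-out arrays.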

Additional observations from a re-analysis of the deposited data

Results flagged for a closer look

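Runx1 was singled out because its arrays moved in opposite directions after fMLP in the 2 genotypes. Both KO fMLP arrays (10.60 and 9.68) were below the KO unstimulated array of set 2 (10.62), and both WT fMLP arrays (10.51 and 10.66) were above the WT one (10.49). The difference between the fMLP responses, KO minus WT, was -0.446 on the log2 scale (limma adjusted p = 0.776) and 0.01 without KO fMLP replicate 2 (adjusted p = 1), and 3 of the 4 arrays were within 0.2 of their unstimulated array. With 2 or 3 arrays a group, no array was tested as an outlier.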

How the results depend on the processing

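None of the 10 factors was called in the main results, and the settings that called some were these. With array weights, the fMLP difference within WT cells was called for Cebpa (-0.33, limma adjusted p = 0.0111) and Cebpb (0.61, 0.0236). That setting called 3731 of the 14070 tested genes in this comparison. Within array set 2 on 9 arrays, a setting chosen after seeing the data, the averaged fMLP difference of Cebpa (-0.33) was called with 1 residual degree of freedom. Each group but WT fMLP was 1 array there, and many other genes were called too, as counted below. Without KO fMLP replicate 2 and WT fMLP replicate 1, the averaged fMLP difference of Cebpb (0.69) was called, from 1 array in each fMLP group. A replicate block in place of the set term sets fMLP arrays of set 2 against unstimulated arrays of set 1. It called 8 of the 10 factors as higher after fMLP on average, 9 in WT and 7 in KO. Of the 14070 tested genes it called 6507, 6331 and 5683 as higher in these comparisons, and 11758, 11384 and 10444 in either direction. Factors were also called lower without KO fMLP replicate 1, where the KO fMLP group is replicate 2 alone. The median of the 10 factors was then -0.86 for KO against WT after fMLP and -0.41 for averaged fMLP. It was -0.77 for fMLP in KO and -0.76 for the interaction. Over all tested genes the medians were -0.10, -0.05, -0.11 and -0.13 in the same order. Of 1139 values of the factors under the alternatives, 150 had another sign than the main value. Of these, 117 came without KO fMLP replicate 2, alone or with another change. A further 14 came with the array set term dropped or replaced, and 19 under the other alternatives.

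The number of genes called moved as follows. Unstimulated KO against WT had 1 (0 within set 2, 2 with array weights, 0 to 1 with arrays left out). KO against WT after fMLP had 1 (0 within set 2, 0 with the replicate block, 3 on 9 arrays within set 2, 0 to 6401 with arrays left out). The averaged fMLP comparison had 48 (10 without the set term, 0 within set 2, 11758 with the replicate block, 77 with a variance trend, 765 with array weights, 7 on 9 arrays without the set term, 3119 on 9 arrays within set 2, 0 to 4055 with arrays left out). fMLP in WT had 11 (1, 0, 11384, 20, 3731, 0 and 1524 in the same order, 25 with the set as a random block, 0 to 968 with arrays left out). fMLP in KO had 12 (1, 0, 10444, 20, 5, 0 and 938 in that order, 4 with quantile normalization, 0 to 5429 with arrays left out). The interaction had 0 (1 on 9 arrays within set 2, 0 to 4924 with arrays left out). The upper ends of these ranges with arrays left out, apart from fMLP in WT and unstimulated KO against WT, came without KO fMLP replicate 1. Leaving out unstimulated replicate 3 of either genotype, with all other arrays kept, gave 0 calls in each comparison. Genes were called where KO fMLP replicate 2 was left out as well.

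Signs of the averaged fMLP difference turned without the set term for Myb (1.07), Runx1 (0.69), Gfi1 (0.13), Cebpe (0.73), Cebpd (0.76), Spi1 (1.16) and Irf8 (0.43). With the replicate block they turned for Myb (1.77), Runx1 (1.13), Gfi1 (0.23), Cebpe (1.19), Cebpd (1.24), Spi1 (1.82) and Irf8 (0.75). On 9 arrays without the set term they turned for Myb (1.30), Runx1 (0.92), Gfi1 (0.27), Cebpe (0.92), Cebpd (0.98), Spi1 (1.37) and Irf8 (0.70), and on 9 arrays within set 2 for Runx1 (0.034), Gfi1 (0.061), Cebpd (0.014), Spi1 (0.053) and Irf8 (0.068). Within set 2 the fMLP difference of Myc in KO was -0.0063. The KO difference after fMLP turned on 9 arrays, without the set term and within set 2, for Myb (0.10), Myc (0.33), Runx1 (0.011), Gfi1 (0.027) and Irf8 (0.33). Unstimulated, the KO difference turned within set 2, on 10 and on 9 arrays, for Myb (0.12), Runx1 (0.13), Cebpb (0.10) and Irf8 (-0.10), and with array weights for Myb (0.047), Runx1 (0.092) and Irf8 (-0.046). Without the set term these fits carry the set difference by construction; for the rest the cause was not tested.

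With arrays left out, the unstimulated KO difference ranged from -0.070 to 0.10 for Runx1 and from -0.064 to 0.16 for Irf8. After fMLP it ranged from -0.84 to 0.28 for Myb, -0.92 to 0.59 for Myc, -0.91 to 0.087 for Runx1, -0.52 to 0.13 for Gfi1, -0.75 to 0.14 for Cebpb and -0.77 to 0.38 for Irf8. The averaged fMLP difference ranged from -0.56 to 0.082 for Myb, -0.20 to 0.56 for Myc, -0.43 to 0.14 for Runx1, -0.21 to 0.13 for Gfi1, -0.40 to 0.033 for Cebpe, -0.42 to 0.044 for Cebpd, -0.36 to 0.063 for Spi1 and -0.48 to 0.20 for Irf8. That of Myc was -0.071 to 0.46 in WT and -0.59 to 0.75 in KO. Cebpa and Cebpb each had 1 sign under all alternatives run for fMLP against unstimulated, averaged and within each genotype. Signals near background limit low genes most, and each of the 10 factors exceeded the filter on at least 8 arrays.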
